A study of Mus musculus with 10 samples.

Results

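The 51 genes described here code for proteins of the nuclear pore and for the carriers and regulators that move cargo through it. They were chosen by symbol, as genes named Nup, Kpna, Kpnb, Ipo, Xpo or Tnpo with their numbers, Xpot, and Ran with Rangap1 and the Ranbp genes, and they are 51 of the 17919 genes that had complete values. No member was lost to the requirement that a probe set have a value in every cell. Expression had been measured in 10 single Bergmann glial cells, the radial astroglia of the cerebellum whose cell bodies lie beside those of Purkinje neurons. The cells were drawn singly, by their green fluorescence, from dissociated mid-sagittal cerebellum of a mouse reporter line (GFAP-GFP) in which GFP is made under the GFAP promoter. No treatment is named for any of the 10 cells, which all came from this line, 5 at postnatal day 6 (P6) and 5 at postnatal day 30 (P30), so age was the compared condition, and the amplified cDNA of each cell was hybridised to its own Affymetrix mouse expression array of 45101 probe sets.

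The nuclear pore is a ring of many copies of nucleoporins set into the nuclear envelope. Inner and outer rings form its scaffold, a channel lined with flexible repeats lets carriers pass, and filaments reach into the cytoplasm and, as a basket, into the nucleus. Importin alpha binds a nuclear localization signal and joins importin beta, while other importins and the transportins bind cargo directly. The small GTPase Ran, kept in its GTP form in the nucleus, releases imported cargo there and loads exportins with cargo that leaves. In the mouse cerebellum the first postnatal week is a time of growth, and Bergmann glia are mature by P30.

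The deposited values are ratios on a linear scale, in which the signal of a probe set was divided by that of a typical cell. They were analysed as log2 ratios, so that 0 marks that typical cell, and a gene has the mean over all its complete probe sets. Because the divisor lay at the median of the P6 cells for 69.5% of complete probe sets (tolerance 0.001), P6 values lie near 0 by construction and ratios hold no levels that could be set against those of another gene. A difference is always the mean log2 ratio at P6 minus that at P30, and a difference past 3-fold is one beyond 1.58 on the log2 scale. Each array is 1 cell and the labels name no animal, so each age counted as 1 sample. No test of age was made, and SD and ranges describe the spread between cells.

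Both replicate 5 cells stood apart from the other cells of their age in markers of other cell types. In P6 replicate 5, the 11 measured markers of dividing cells lay at a median of 3.55 above the other P6 cells, and 10 neuronal markers at 3.48. The neuronal list was split there, as Nefl (-1.40), Syt1 (-0.38), Rbfox3 (-0.76) and Map2 (-0.22) were not raised. The other neuronal markers, Snap25 (3.21), Tubb3 (3.44), Nefm (0.98), Stmn2 (3.47), Syp (4.33) and Gap43 (3.33), were high. In P30 replicate 5, 4 Purkinje neuron markers lay at 3.30 and 6 granule neuron markers at 1.65 above the other P30 cells. Markers of endothelium and pericytes (9) lay at 1.63 and neuronal markers at 0.77 above them in that cell, and 16 astroglial markers at -0.84. The median over the 4 Purkinje neuron markers was also 1.90 and 2.18 above the other cells of their age in P6 replicate 2 and P30 replicate 2. These 4 genes did not move together. In P6 replicate 2, Pcp4 was the lowest of the P6 cells (-3.57), while Pcp2, Calb1 and Car8 were the highest. In P30 replicate 2, Calb1 (0.16) and Car8 (-0.72) were little raised. In P30 replicate 5, Car8 was the lowest of the P30 cells (-1.29), while Pcp2, Calb1 and Pcp4 were high. Between ages, dividing cell markers differed by a median of 2.32, with 8 of 11 over 3-fold higher at P6, against 9.39% of all genes. Only Mcm5 among them had cells that did not overlap. Astroglial markers differed by a median of -0.38, but Ntsr2 (-6.41) and Gja1 (-3.17) were over 3-fold higher at P30. In Gja1 all P30 cells lay above all P6 cells. These ratios cannot show whether a marker was absent, so the labelled cell type could be checked only for cells that differ from the others. Values without these cells are given for the main counts and for the members that they moved most. Their part in the results was not tested.

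Genes of the pore and of transport were higher at P6 on balance. The median difference over the 51 members was 0.89, against 0.05 over all 17919 genes, and 38 members (74.5%) had a higher mean at P6, against 52.4% of all genes. Members over 3-fold higher at P6 numbered 11 (21.6%), against 9.39% of all genes. These were the outer ring nucleoporins Nup43 and Nup85, the inner ring nucleoporins Nup93, Nup205 and Nup155, the importins Kpna4, Kpnb1, Ipo4 and Ipo9, and the Ran-binding proteins Ranbp3 and Ranbp1. Only Nup153, of the nuclear basket, and Ranbp9, a scaffold protein, were over 3-fold higher at P30 (3.92% of members, against 4.93% of all genes). All 13 of these genes had overlapping cells at the 2 ages.

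**Figure D1:**
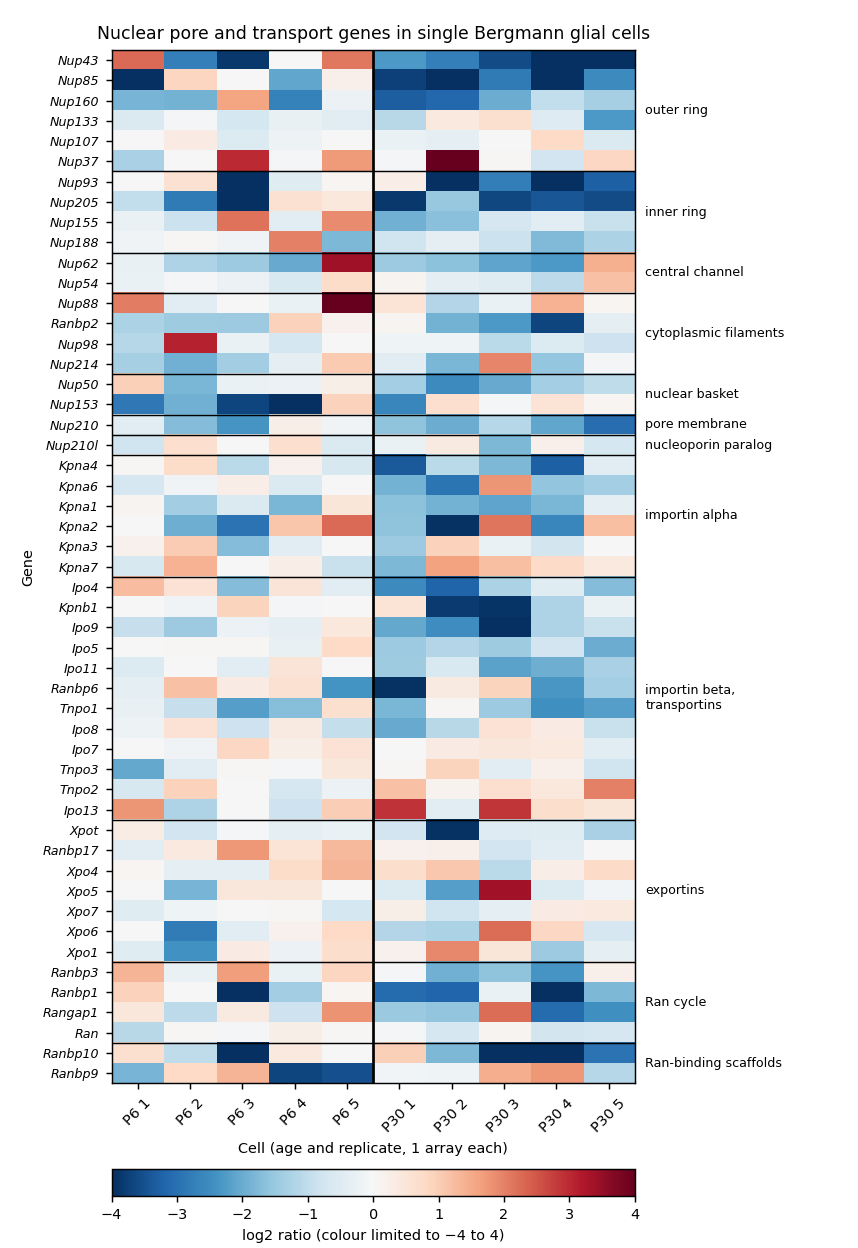
Log2 ratio of each of the 51 genes (rows, grouped by role and ordered by difference) in each cell (columns, P6 left and P30 right of the vertical line), with colours limited to -4 and 4. Low values (blue) are more frequent on the P30 side, as in the inner ring and among importins, and rows vary widely within an age.

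The spread between cells was large beside these differences. A difference above the pooled SD of the cells at both ages was seen at P6 in 17 of 51 members, against 14.9% of all genes. Higher at P30 by more than that SD were 2 members, Nup153 and Tnpo2, which leaves 32 within it. Shares of all genes were not computed for these counts, so they cannot be set against a background. In 2 members, Ipo5 and Ipo11, all 5 P6 cells lay above all 5 P30 cells (3.92%, against 2.13% of all genes). In no member did all P30 cells lie above all P6 cells, against 1.41% of all genes. The median difference over members fell to 0.62 with both replicate 5 cells left out and to 0.64 without P6 replicate 5 alone. It was 0.40 without probe sets that had a cell at the deposited floor of 0.01, and 0.43 by arithmetic means. Without those probe sets, 6 of 50 members were over 3-fold higher at P6, against 7.13% of all genes. With a floor of 0.1 the median difference was 0.61. Under that floor 3 of 51 members were over 3-fold higher at P6, a share below the 6.55% of all genes.

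**Figure D2:**
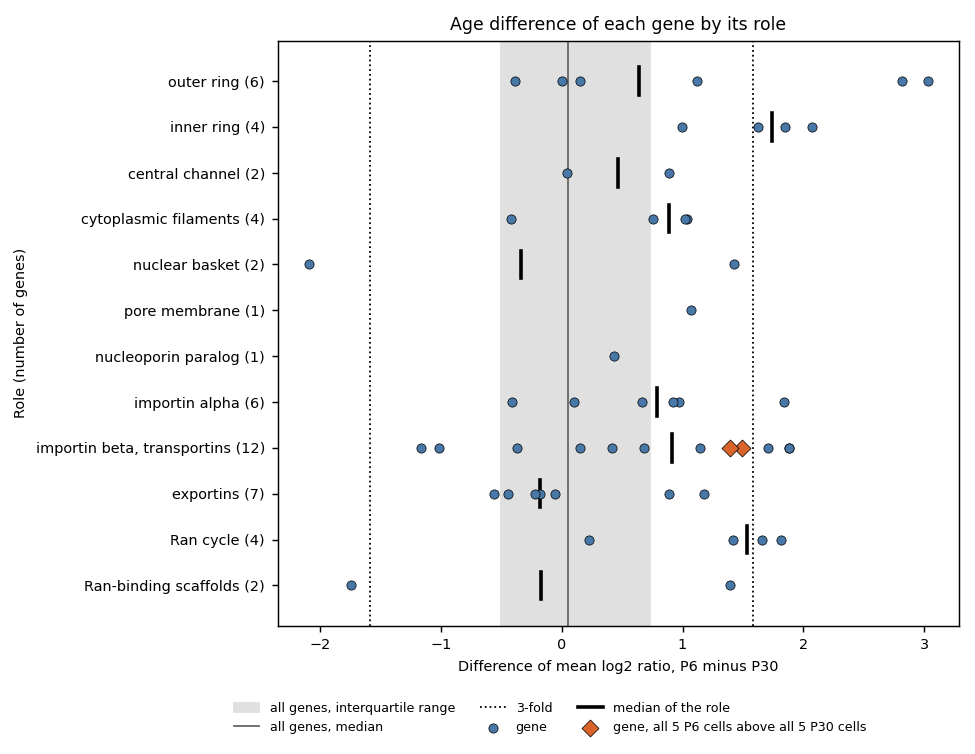
Difference of mean log2 ratio (P6 minus P30) of each gene by role, with the median of each role as a bar, the interquartile range and median of all genes as band and line, and 3-fold as dotted lines. Inner ring and Ran cycle genes lie right of the all-gene median of 0.05, exportins on both sides of it, and diamonds mark Ipo5 and Ipo11.

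Promoter sequences are shown for 4 importin genes, the 2 in which the cells of the ages did not overlap (Ipo5, Ipo11) and both parts of the classical import receptor, each past 3-fold (Kpnb1, Kpna4). Each run is the 250 bases before the annotated start in RefSeq (GRCm38.p6), written 5′ to 3′ on the strand of the gene, with capitals for the letters CCAAT or their reverse complement ATTGG. Ipo5 lies on the plus strand at chr14:120910944-120911193, Ipo11 on the minus strand at chr13:106936959-106937208, Kpnb1 on the minus strand at chr11:97187893-97188142 and Kpna4 on the minus strand at chr3:69127093-69127342.
Ipo5: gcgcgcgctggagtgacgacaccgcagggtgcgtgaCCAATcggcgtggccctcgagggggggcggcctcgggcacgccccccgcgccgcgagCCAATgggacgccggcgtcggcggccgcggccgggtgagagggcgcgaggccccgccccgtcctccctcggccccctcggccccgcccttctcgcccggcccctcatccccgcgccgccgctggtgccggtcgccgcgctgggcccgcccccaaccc
Ipo11: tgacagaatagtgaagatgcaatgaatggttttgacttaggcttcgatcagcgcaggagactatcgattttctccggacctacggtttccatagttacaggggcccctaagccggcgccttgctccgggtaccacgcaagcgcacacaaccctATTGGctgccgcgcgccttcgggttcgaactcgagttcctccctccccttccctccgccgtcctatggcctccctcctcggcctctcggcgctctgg
Kpnb1: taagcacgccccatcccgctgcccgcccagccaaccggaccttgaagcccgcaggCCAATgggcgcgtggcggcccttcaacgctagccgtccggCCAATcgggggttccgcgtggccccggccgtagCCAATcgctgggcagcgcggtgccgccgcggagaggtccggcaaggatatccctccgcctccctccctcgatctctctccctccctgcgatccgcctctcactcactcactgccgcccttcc
Kpna4: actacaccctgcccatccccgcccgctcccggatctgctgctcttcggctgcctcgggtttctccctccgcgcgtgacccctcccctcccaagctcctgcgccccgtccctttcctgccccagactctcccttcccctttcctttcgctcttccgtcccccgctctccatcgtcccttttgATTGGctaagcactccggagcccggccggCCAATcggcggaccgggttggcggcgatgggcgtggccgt
These windows hold 2 matches in Ipo5, first bases at -214 and -157 from the start, 1 in Ipo11 at -97, 3 in Kpnb1 at -195, -155 and -122, and 2 in Kpna4 at -69 and -40. Of the 51 members, 41 were matched to such a window by symbol. CCAAT on either strand was found in 18 of them (43.9%), against 34.5% of 27025 gene windows and 35.8% of the 14246 windows of genes on the array, and 5 of the 8 matched members over 3-fold higher at P6 had it. The other 3, Ipo4, Ipo9 and Nup205, had no match. The letters CCGGAAG, an ETS factor motif, were in 17.1% of members and in 10.7% of array genes. GCATGCGC, part of the palindromic motif of the factor NRF1, was in 6 members (14.6%), against 3.57% of array genes, and these members were Nup50, Nup62, Nup107, Ran, Ranbp1 and Xpo5. TGACGTCA, the cyclic AMP response element, was in 7.32% against 2.25%, and AAGATGGC, bound by YY1, in 4.88% against 1.78%. Member windows had a median GC content of 64.4%, against 58% for array genes, and each motif was searched on both strands. A match is a description of letters and not a bound site.

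Outer ring nucleoporins form the Y-shaped complex that is built into the pore from both faces, and 5 of its 6 members here were higher at P6, by a median of 0.64. Nup43 had log2 ratios of 2.27, -2.74, -3.87, 0.00 and 2.12 in the P6 cells and of -2.31, -2.75, -3.59, -4.16 and -4.59 in the P30 cells. Its 3 high P6 cells lay above all P30 cells, the other 2 among them, and the difference was 3.03 (8.19-fold), or 2.39 without P6 replicate 5. Nup85 had -4.24, 0.87, 0.00, -2.06 and 0.21 at P6 and -3.72, -6.10, -2.82, -4.11 and -2.54 at P30, a difference of 2.81, with 4 P6 cells above all P30 cells and P6 replicate 1 within their range. These were the only members with several probe sets in which every probe set was over 3-fold higher at P6, and the only ones of the 13 past 3-fold to stay so under all 18 alternatives tried.

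The other members of the Y complex differed less. Nup160 differed by 1.12, with an SD of 1.42 over cells, and its P6 cells ran from -2.71 to 1.59. Nup133 and Nup107, which sit at the stem of the Y, differed by 0.16 and by less than 0.01. Nup107 was the steadiest nucleoporin over cells (pooled SD 0.44), with all 10 cells between -0.58 and 0.80. Nup37 had a difference of -0.39 and the highest single value of any member, 5.21 in P30 replicate 2.

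The inner ring, which holds the pore to the nuclear envelope, had a median of 1.74 over 4 genes, all of them higher at P6. Nup93, which anchors the other inner ring proteins, had log2 ratios of 0.00, 0.61, -4.65, -0.50 and 0.07 at P6 and of 0.28, -4.96, -2.78, -4.10 and -3.27 at P30. Apart from P6 replicate 3 and P30 replicate 1, the cells of the ages did not overlap, and the difference was 2.07. Nup205, a large scaffold protein, had -0.99, -2.84, -3.98, 0.62 and 0.44 at P6 and -3.86, -1.52, -3.64, -3.42 and -3.57 at P30. Of its P6 cells, replicates 1, 4 and 5 lay above all P30 cells and the others among or below them. The difference of 1.85 came from 1 of its 2 probe sets (3.58, with 2 P30 values at the floor), as the other had 0.12. Without P6 replicate 5 it was 1.40, under 3-fold.

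Nup155, needed to recruit the ring to the membrane, had -0.27, -0.85, 2.17, -0.42 and 1.89 in the P6 cells. Its P30 cells had -1.92, -1.67, -0.67, -0.47 and -0.88, so that 4 of the P6 cells lay above all P30 cells and the difference was 1.62. Without P6 replicate 5 the difference was 1.28, under 3-fold. The 3 probe sets gave 4.62, 1.05 and -0.80. The first of these was 1 of 2 member probe sets in which all P6 cells lay above all P30 cells, the other belonging to Nup50, while 1.79% of all probe sets had this. Nup188 differed by 1.00, with 0.76 and 1.23 in its 2 probe sets, and its P30 cells lay between -1.75 and -0.35. The inner ring median stayed above 0 under every alternative, from 0.56 without probe sets at the floor to 1.86.

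Among the peripheral and channel nucleoporins values were mixed. Nup62, which carries the repeats that fill the channel, had -0.30, -1.24, -1.46, -2.03 and 3.39 at P6 and -1.44, -1.64, -2.11, -2.30 and 1.43 at P30. Both high values were those of the replicate 5 cells, and the difference of 0.89 was under its pooled SD of 1.87 and was -0.04 without P6 replicate 5. Nup54, its partner in the channel, differed by 0.04, again with both replicate 5 cells highest, at 0.73 and 1.17, and by -0.16 without P6 replicate 5. Leaving out P6 replicate 5 alone keeps the high P30 cell. With both replicate 5 cells left out, these 2 genes had a median difference of 0.39 and both were higher at P6.

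On the cytoplasmic side, Nup88 differed by 1.04, and its value in P6 replicate 5 (4.43) was the highest of any member at P6. Its difference was 0.22 without that cell and -0.09 by medians over cells. Ranbp2, the giant protein of the cytoplasmic filaments that binds Ran and acts as a SUMO ligase, differed by 1.02, and Nup98, which also serves as a docking site for mRNA export, by 0.76. Nup214, the partner of Nup88, had a difference of -0.42. In Nup98 a single P6 cell, replicate 2, stood at 3.07 while the other 9 cells lay between -1.14 and 0.00.

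The nuclear basket held the nucleoporin that was highest at P30. Nup153, which docks importins and recruits the basket, had -2.86, -1.93, -3.68, -4.31 and 0.91 in the P6 cells and -2.61, 0.67, -0.09, 0.55 and 0.08 in the P30 cells. P30 replicate 1 lay among the low P6 cells and P6 replicate 5 above all P30 cells, while the other cells of the ages did not overlap, and the difference was -2.09. It was -1.16 to -2.99 in the 3 probe sets, with 4 P6 values and 1 P30 value at the floor, -1.55 with a floor of 0.1, and -2.91 without P6 replicate 5. Nup50, a mobile partner of Nup153 that helps to take importin alpha apart from its cargo, went the other way. Its P6 cells had 0.95, -1.84, -0.27, -0.22 and 0.23 and its P30 cells -1.35, -2.55, -2.01, -1.37 and -1.02, so that only P6 replicate 2 lay among the P30 cells, and the difference was 1.43. The membrane nucleoporin Nup210 differed by 1.07 and its paralog Nup210l by 0.43.

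Importins and transportins were higher at P6 by a median of 0.80 over 18 genes, of which 14 had a higher mean at P6. In each cell, the median over these genes lay between -0.13 and 0.01 at P6 and between -1.63 and -0.36 at P30. No P30 cell thus reached the lowest P6 cell, by a gap of 0.23, which was 0.03 once the median of all genes in the same cell was taken off. The median difference stayed above 0 under every alternative, from 0.34 to 1.23.

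Of the importin alpha proteins, the adaptors that read the classical localization signal, Kpna4 differed most. Its log2 ratios were 0.03, 0.74, -1.09, 0.17 and -0.63 at P6 and -3.36, -1.09, -1.80, -3.28 and -0.43 at P30, with P30 replicates 2 and 5 within the range of the P6 cells. The difference of 1.84 was the mean of 3.75 in a probe set with 2 P30 cells at the floor and of -0.07 in the other. Without the first of them, the sign of Kpna4 was turned. Kpna6 differed by 0.97 and Kpna1 by 0.92, while the probe sets of each disagreed in sign. Kpna2, an importin alpha known for high levels in dividing cells, had 0.00, -1.95, -2.97, 1.11 and 2.27 at P6 and -1.61, -3.97, 2.15, -2.61 and 1.19 at P30. Its cells overlapped over nearly the whole range (difference 0.66, pooled SD 2.37). Kpna3 differed by 0.11, and Kpna7, an oocyte form, by -0.41.

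Kpnb1, importin beta 1, is the carrier that takes importin alpha and its cargo through the pore. Its P6 cells were close together, at 0.02, -0.13, 0.89, -0.09 and -0.02, whereas its P30 cells were scattered, at 0.54, -3.82, -3.94, -1.24 and -0.26. A single P30 cell, replicate 1, lay among the P6 cells, and the difference was 1.88, with 1.33, 1.80 and 2.51 in the 3 probe sets. By arithmetic means, in which the high cell weighs more, it was 0.51.

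Ipo5 and Ipo11, both carriers that bind their cargo without importin alpha, had the clearest order of cells. Log2 ratios of Ipo5 were 0.03, 0.06, 0.06, -0.28 and 0.81 at P6 and -1.46, -1.18, -1.41, -0.77 and -1.97 at P30, a difference of 1.49 (2.81-fold) with a pooled SD of 0.42. Those of Ipo11 were -0.54, 0.00, -0.42, 0.52 and -0.02 at P6 and -1.41, -0.62, -2.15, -1.95 and -1.29 at P30, a difference of 1.39 (2.62-fold) with a pooled SD of 0.52. The gap between the ages was 0.49 in Ipo5 and 0.08 in Ipo11, and the latter was lost when arrays were divided by their medians. That of Ipo5 was lost, and its difference was 0.90, by the median over probe sets. No single probe set of either gene kept the cells of the ages apart. The 3 probe sets of Ipo5 gave 3.00, 1.85 and -0.38, and the 2 of Ipo11 gave 2.30 and 0.48.

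Ipo4, which carries histones and ribosomal proteins, had 1.22, 0.58, -1.74, 0.53 and -0.44 at P6 and -2.56, -3.21, -1.26, -0.49 and -1.72 at P30, with P6 replicate 3 among the P30 cells and a difference of 1.88. Ipo9 differed by 1.71 and was positive in all 3 probe sets (1.15 to 2.34), though its cells overlapped. Ranbp6, a relative of Ipo5, differed by 1.14, Tnpo1, the carrier of many hnRNP proteins, by 0.69, Ipo8 by 0.41 and Ipo7 by 0.15. At the other end, Ipo13, which both imports and exports cargo, differed by -1.17 and Tnpo2 by -1.01. In Tnpo2 the P30 cells had 1.17, 0.13, 0.68, 0.43 and 2.02, above all P6 cells other than replicate 2 (0.92). Tnpo3, a carrier of SR splicing factors, had a difference of -0.37.

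**Figure D3:**
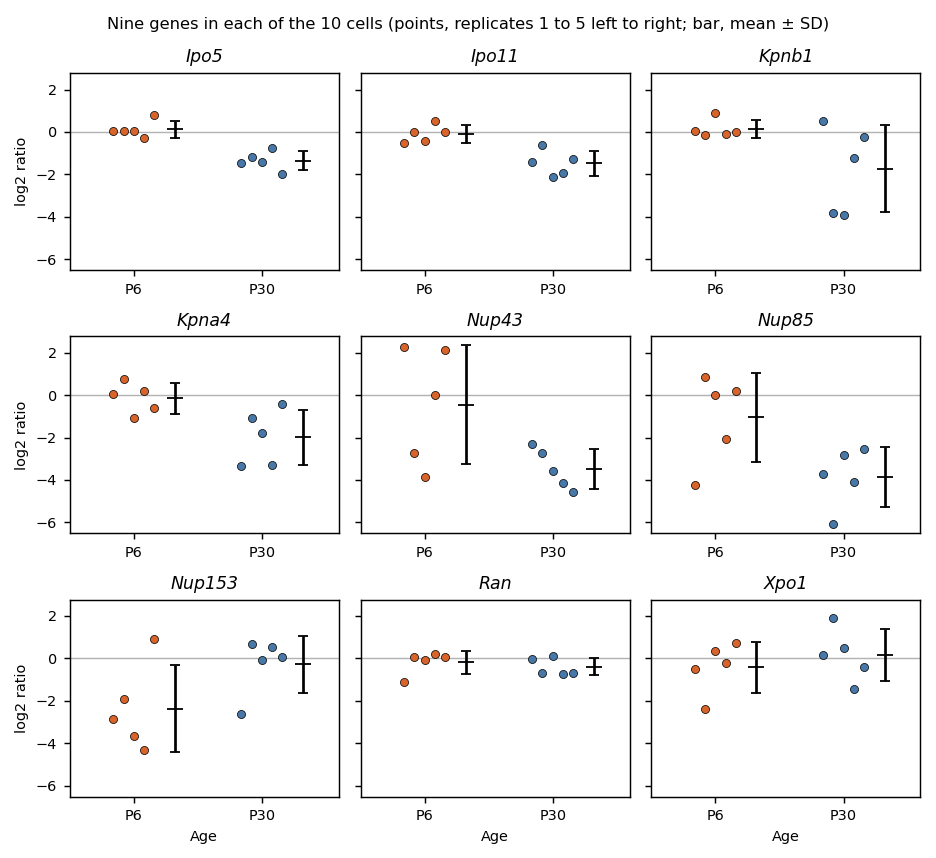
Log2 ratio of 9 genes in each cell (points, replicates 1 to 5 from left to right) with the mean and SD over the 5 cells of an age (bar). All P6 cells lie above all P30 cells in Ipo5 and Ipo11, P30 cells of Kpnb1 are scattered from -3.94 to 0.54 beside P6 cells near 0, and Nup153 runs the other way.

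Exportins, which bind cargo together with Ran in its GTP form, were not higher at P6 on balance, as 2 of 7 had a higher mean at P6, and the median difference was -0.18. Over the alternatives this median ran from -0.34 to 0.51, so it had no settled sign. Per cell, the exportin median ran from -0.78 to 0.71 at P6 and from -0.80 to 0.17 at P30, and the ages overlapped. Whether exportins differ from importins could not be tested with 1 sample per age.

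Xpo1, the main exportin for proteins with a leucine-rich export signal, had -0.49, -2.41, 0.34, -0.22 and 0.71 at P6 and 0.18, 1.92, 0.48, -1.44 and -0.39 at P30. Its difference of -0.56 was under its pooled SD of 1.22. Differences of Xpo4, Xpo5 (the exporter of microRNA precursors) and Xpo6 (the exporter of actin with profilin) lay between -0.45 and -0.06. Xpot, which exports transfer RNA, had 0.29, -0.78, -0.04, -0.37 and -0.25 at P6 and -0.76, -3.95, -0.53, -0.49 and -1.29 at P30. It was higher at P6 by 1.17, all 4 of its probe sets agreed in sign (0.54 to 1.42), and P6 replicate 2 lay among the P30 cells. In 2 of these probe sets, P30 replicate 2 was at the floor while P30 replicates 3 and 4 lay above all P6 cells. Ranbp17, an exportin relative, differed by 0.89.

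Xpo7 had 8 probe sets, more than any other member, and they went both ways past 3-fold. In the lowest (-3.14) the P6 cells had 0.00, -0.56, 0.16, 0.19 and -0.45 and the P30 cells 4.75, 1.04, 2.34, 1.77 and 5.15. This was the only member probe set in which all P30 cells lay above all P6 cells, against 1.2% of all probe sets. The highest probe set of Xpo7 gave 1.68, and the gene value of -0.22 is a mean over unlike signals.

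Regulators of the Ran cycle were all higher at P6, with a median of 1.54 over 4 genes, and the median stayed between 0.85 and 2.21 under the alternatives. Ran itself differed little, at 0.22, and its cells had -1.12, 0.04, -0.07, 0.22 and 0.06 at P6 and -0.03, -0.68, 0.11, -0.72 and -0.67 at P30. Of its 6 probe sets, 2 were below 0, and the difference was -0.54 without _x_at and _s_at probe sets, which can match several transcripts, and 0.71 by medians over cells. The value of -0.54 is that of 1 probe set, with P6 replicate 1 at the floor (-6.64) and P30 replicate 2 near it (-6.07). Ranbp3, a cofactor of Xpo1, had 1.36, -0.28, 1.67, -0.28 and 0.86 at P6 and -0.03, -1.94, -1.62, -2.35 and 0.21 at P30, a difference of 1.81, and its P30 replicates 1 and 5 lay among the P6 cells. Its probe sets ranged from -0.24 to 3.32.

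Ranbp1, which helps to release Ran from carriers on the cytoplasmic side, had 0.93, 0.00, -6.28, -1.39 and 0.07 at P6 and -3.07, -3.17, -0.25, -6.64 and -1.80 at P30. The last but one of these was at the floor, and the difference of 1.66 fell to 0.74 without that cell. Rangap1, the activator of GTP hydrolysis by Ran, differed by 1.42 through 1 probe set with 4.14, as the other 2 had -0.01 and 0.13.

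Ranbp9 and Ranbp10, paralogs that bind Ran but act as scaffolds of a ubiquitin ligase and not as carriers, went opposite ways. Ranbp9 had -1.87, 0.79, 1.37, -3.68 and -3.52 at P6 and -0.10, -0.17, 1.46, 1.75 and -1.14 at P30, a difference of -1.74 with 2 P6 values at the floor, and it was -1.03 with a floor of 0.1. Ranbp10 differed by 1.39 with a pooled SD of 2.25. Of 8 paralog pairs set side by side, chosen after their values were seen, 3 had opposite signs: this one, Tnpo1 with Tnpo2 (0.69 and -1.01) and Ranbp17 with Xpo7 (0.89 and -0.22). The value of Tnpo1 came from 1 probe set (2.48, with 2 P6 and 3 P30 values at the floor). Its other probe sets, at -0.27 and -0.16, had the sign of Tnpo2. Probe sets of Ranbp17 ran from -0.88 to 2.02, and Xpo7 was at 0.20 by the median over probe sets. Kpna4 and Kpna3 differed from each other by 1.73 and Kpna6 and Kpna1 by 0.05. Such a distance compares 2 differences and not levels.

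Probe sets of the same gene often disagreed. Of the 134 complete probe sets of members, 34 (25.4%) were over 3-fold higher at P6, against 11.1% of all probe sets, and 7 (5.22%) were over 3-fold higher at P30, against 6.6%. Among the 41 members with 2 or more probe sets, 16 had 1 sign throughout and 25 had both signs. The range over probe sets of a gene exceeded 3-fold in 26 of them. In 16 members a probe set was over 3-fold higher at P6 while the gene value was not. A P30 cell stood at the floor in 14 member probe sets and a P6 cell in 7. For these counts of signs, ranges and floor values, shares over all genes or probe sets were not computed. Such disagreement is therefore not shown to be particular to these members.

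**Figure D4:**
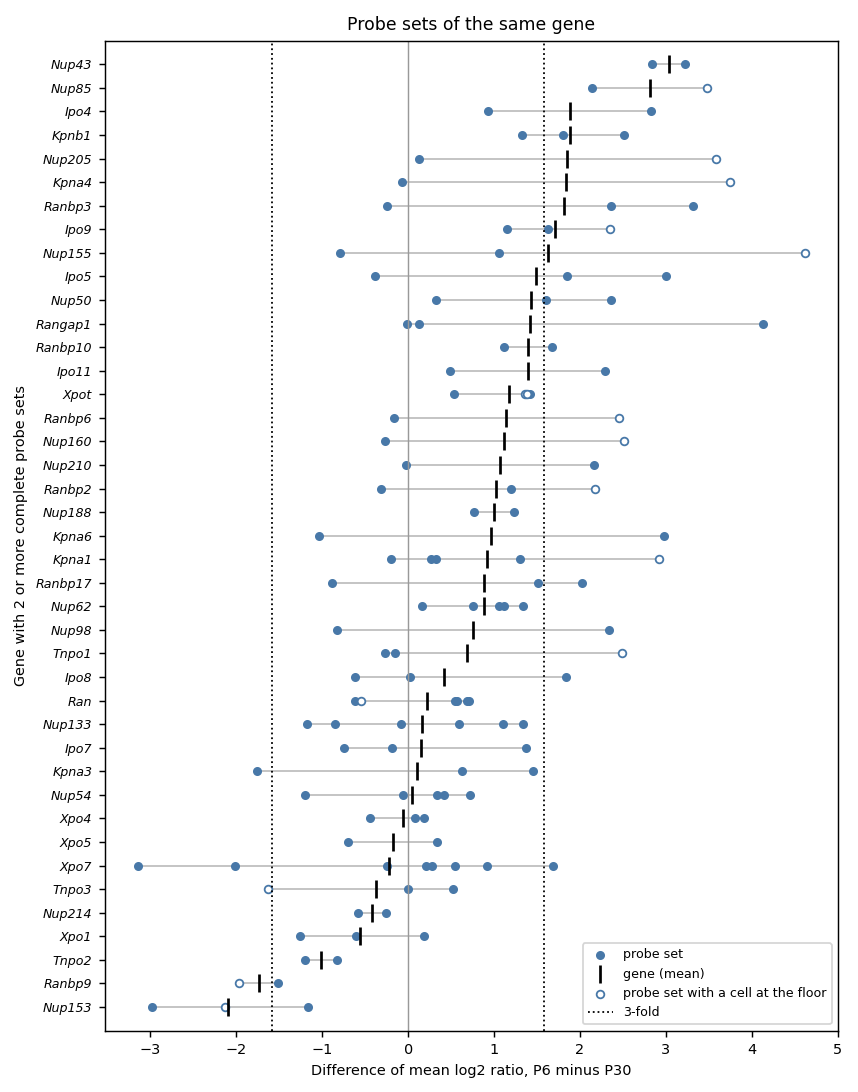
Difference (P6 minus P30, log2) of every complete probe set of the 41 members with 2 or more, ordered by gene value (vertical tick), with 3-fold as dotted lines and open points for probe sets with a cell at the floor. Points of 1 gene often lie on both sides of 0, and those furthest right in Nup205, Kpna4 and Nup155 are open.

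Seen cell by cell, the median over members was -0.27, -0.18, -0.23, -0.22 and 0.18 in the P6 cells and -1.11, -1.16, -0.53, -0.97 and -0.70 in the P30 cells, so that all P6 cells lay above all P30 cells. The median of all genes lay between -0.20 and 0.00 at P6 and between -0.49 and -0.18 at P30. Relative to the median of all genes in the same cell, the ages came close, at -0.21 in P6 replicate 4 and in P30 replicate 5. Nucleoporins as a group lay between -0.45 and 0.23 at P6 and between -1.52 and -0.88 at P30. Relative to all genes they overlapped, with -0.41 in P6 replicate 2 and -0.39 in P30 replicate 5.

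P6 replicate 5, the cell with high markers of division and some high neuronal markers, was also the highest P6 cell in members. It held the highest P6 value in 15 of 51 members (29.4%), against 15.6% of all genes. In this cell 12 of 51 members stood over 3-fold above the median of the other P6 cells, against 11.9% of all genes. Those furthest above were Nup62 (by 4.74), Nup88 (4.57), Nup153 (4.17), Nup43 (3.49) and Kpna2 (3.24). In the same cell the dividing cell markers had a median of 2.72, against -0.51 to 0.00 in the other P6 cells and -2.35 to -2.01 in the P30 cells. Importins had a median of 0.01 in this cell. Without the replicate 5 cells, 10 of 51 members were over 3-fold higher at P6, against 10.5% of all genes.

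**Figure D5:**
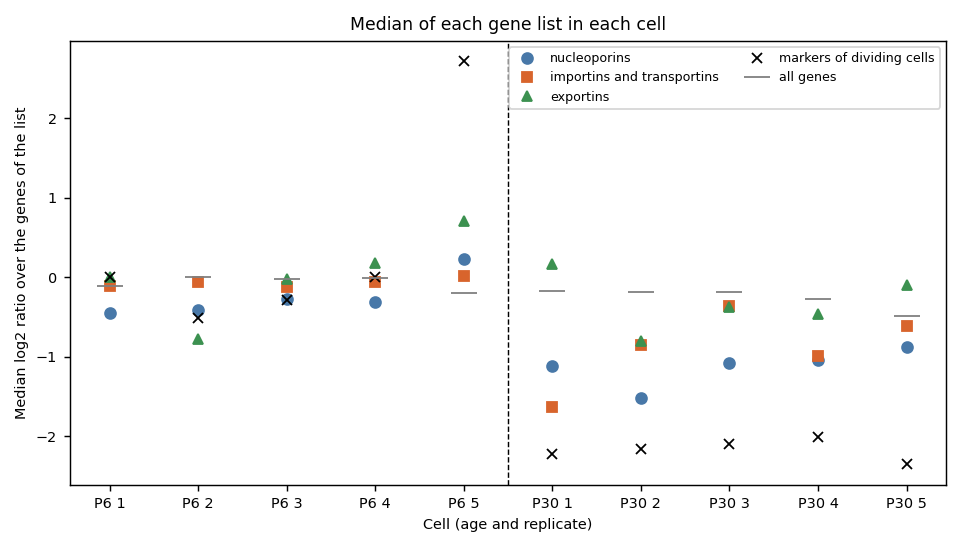
Median log2 ratio of nucleoporins, importins with transportins, exportins, markers of dividing cells and all genes in each cell, P6 left and P30 right of the dashed line. Nucleoporins and importins are lower in each P30 cell than in any P6 cell, though relative to all genes nucleoporins overlap and importins are 0.03 apart, exportins overlap, and dividing cell markers stand at 2.72 in P6 replicate 5.

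Genes of the same pathway that the symbols above do not cover were also higher at P6 on balance. Over 40 such genes (other pore components, other transport factors, mRNA export and SUMO enzymes), the median difference was 0.77, 33 (82.5%) had a higher mean at P6, against 52.4% of all genes. Past 3-fold, 8 (20%) favoured P6, against 9.39% of all genes, and 2 (5%) favoured P30, close to the 4.93% of all genes. It was the other pore components that had the highest median of these groups, at 1.16. Among them Seh1l, which belongs to the Y complex, had -0.998, -0.96, -0.27, -1.09 and 0.43 at P6 and -1.56, -4.05, -2.89, -3.61 and -1.12 at P30, a difference of 2.07 over 7 probe sets. Its P6 cells all lay above its P30 cells, by a gap of only 0.04, and 6 P30 values were at the floor. Nupl2, of the cytoplasmic face, differed by 1.90.

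Factors that package and export mRNA had a median of 0.74 over 18 genes, with 5 (27.8%) over 3-fold higher at P6, against 9.39% of all genes. These were Thoc6 (2.70), a subunit of the THO complex, Ddx39a (2.45), an RNA helicase, Sarnp (2.02), Nxt1 (1.96), the partner of the export receptor, and Alyref (1.90), the export adaptor. All 5 had overlapping cells at the 2 ages. Sarnp was low only in P30 replicates 4 (-5.34) and 5 (-3.87), with the other P30 cells between -0.48 and -0.11. The highest cell of Nxt1 was P30 replicate 1 (1.30). Ddx39a had 2 P6 and 3 P30 values at the floor, and Thoc6 and Nxt1 had 1 probe set each. Sumo3, a SUMO protein, differed by 1.96. Only Poldip3 (-1.96) and Hikeshi (-1.63), which imports heat shock protein 70, were over 3-fold higher at P30. The 6 probe sets of Poldip3 ran from -3.63 to 2.36, with 3 P6 values and 1 P30 value at the floor. Hikeshi stood at -6.53 in P6 replicate 3, with 1 P6 value at the floor. Its other P6 cells lay between -1.23 and 0.99 and its P30 cells between -0.97 and 1.18. The export receptors Nxf1, for mRNA, and Cse1l, which returns importin alpha to the cytoplasm, differed by 0.70 and 0.45.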

How the data were processed

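Reverse transcription was primed by oligo-dT and limited to short cDNAs before amplification by PCR, one cell per array. According to the authors, scans were processed by RMA in GeneSpring, low values were set to 0.01, and signals were divided by the array's 50th percentile and by the median of the probe set. The deposited values are these ratios (0 to 961.5), and the values of 0, 10 in all, were set to 0.01. The floor was met by 1.07% of P6 and 1.73% of P30 values.

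Complete values were required, which kept 43608 of 45101 probe sets. Of the 1493 others, 480 were blank throughout and 1013 lacked every P6 value, so genes without a usable P6 value are missed. A platform table paired 34958 probe sets with 1 gene (34754 were also found in RefSeq by gene ID, and symbols were updated there), 932 with several and 9211 with none. Only those with 1 gene were used. Members had 137 such probe sets, of which 134 were complete. Another 3, shared by Ipo4, Xpo4 or Kpna4 with another gene, were left out.

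The compared quantity was the mean log2 ratio at P6 less that at P30, read against 3-fold, together with any overlap between cells of both ages. The one-way analysis of variance in the methods takes cells as replicates and was not repeated. Members named with values are those past 3-fold or without overlap, the largest and smallest of each role, Xpot, which the study names (Nup35, also named there, was not analysed here), Ran, Kpnb1, Xpo1 and those with probe sets past 3-fold in both directions; others were named after their values were seen. Members, lists and rules were chosen with earlier results of these data known. Alternatives were median scaling, a floor of 0.1, leaving out probe sets at the floor or with shared targets (_x_at, _s_at), medians over cells or probe sets, arithmetic means and each cell left out. Leaving out both replicate 5 cells was added after the data were seen. Steps were tested on simulated data and used NumPy 2.4.6 and pandas 2.3.3 under Python 3.11.15, with plots by Matplotlib 3.10.9. The number of arrays limits the precision, and signal over background was not used here.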

Additional observations from a re-analysis of the deposited data

Results flagged for a closer look

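In 66 groups of 5 cells (the 32 members chosen by the naming rule and the median over members, at each age), 9 had a highest or lowest cell whose gap to the nearest other cell took up more than 0.71 of the range of the group. In normally spread values chance flags about 1 in 20 groups, but many of these members were chosen for their values, so that share is only a guide. Of these, 5 were P6 cells and 4 were P30 cells.

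Among nucleoporins, Nup93 stood at -4.65 in P6 replicate 3, while the other P6 cells lay between -0.50 and 0.61. Nup153 stood at -2.61 in P30 replicate 1, against -0.09 to 0.67 in the other P30 cells. For Nup205 the cell apart was P30 replicate 2, at -1.52, against -3.86 to -3.42. Nup62 was at 1.43 in P30 replicate 5, against -2.30 to -1.44.

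Among transport factors, Kpnb1 was at 0.89 in P6 replicate 3, against -0.13 to 0.02 in the other P6 cells. Xpot was at -3.95 in P30 replicate 2, against -1.29 to -0.49. Ran was at -1.12 in P6 replicate 1, against -0.07 to 0.22. Ranbp10 was at -5.12 in P6 replicate 3, against -1.02 to 0.64. The median over all 51 members was 0.18 in P6 replicate 5, against -0.27 to -0.18 in the other P6 cells. That is the cell with high markers of division and some high neuronal markers.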

How the results depend on the processing

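The median difference over members (0.89) kept its sign under all 18 alternatives. It was 0.61 with a floor of 0.1, 0.40 without probe sets at the floor, 0.62 by medians over cells, 0.43 by arithmetic means, 0.62 without both replicate 5 cells, and 0.64 (without P6 replicate 5) to 0.97 (without P6 replicate 2) with 1 cell left out. Members over 3-fold higher at P6 (11) fell to 3 of 51 with a floor of 0.1 (Nup43, Nup85 and Nup93), a share below the 6.55% of all genes. They fell to 6 of 50 without probe sets at the floor, against 7.13% of all genes. Members over 3-fold higher at P30 (2) numbered 0 with a floor of 0.1, 1 without probe sets at the floor and 1 without _x_at and _s_at probe sets. All genes had 4.49%, 4.92% and 5.02% there. With 1 cell left out such members numbered 1 to 3, against 5.1% to 5.66% of all genes. Members whose cells did not overlap, P6 being higher (2), were 1, Ipo5, after median scaling, 3 by the median over probe sets (Ranbp17, Ipo11 and Nup50, without Ipo5) and 2 to 5 with 1 cell left out, and those with P30 being higher (0) were 0 to 1, the 1 being Tnpo2 without P6 replicate 2. Shares of all genes without overlap were not computed under these alternatives, and leaving out a cell eases separation for any gene. Median scaling moved the median of all genes by -0.16, and 33 members in place of 38 were then higher at P6. Of 574 values of named members under alternatives, 567 stayed within 1 SD of the cells, 6 moved by more (Ipo5, Nup155, Nup205, Xpot and, in 2 settings, Ran), and Kpna4 was reversed, at -0.0724 without probe sets at the floor. The sign changed in 41 values of 12 members, all under 3-fold except Kpna4. The other pathway genes kept a median between 0.56 and 1.01. No paired analysis was possible because each age counted as 1 sample and no test was made. What causes these shifts was not tested. A higher floor, or leaving out probe sets at the floor, alters low values at both ages. Among member probe sets, 14 had a P30 cell at the floor and 7 a P6 cell.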

Other observations

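A probe set each of Kpnb1, Tnpo2 and Ranbp2 had values in P30 cells only and entered no comparison. That of Tnpo2, a transportin whose complete probe sets were also higher at P30, had deposited ratios of 4.41 in P30 replicate 3, 1.47 in replicate 4 and 153.3 in replicate 5. That of Ranbp2 had ratios of 2.89 in P30 replicate 2 and 1.10 in replicate 3, and that of Kpnb1 had 1.07 in P30 replicate 4. Without a P6 value, the divisor behind these ratios is not known.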
